A study of Homo sapiens with 8 samples.

Results

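The genes described here drive the cell division cycle: the cyclins and their kinases, the retinoblastoma switch, the Aurora and Polo kinases, the spindle assembly checkpoint, and the proteins that build the spindle, the centromere and the mitotic chromosome. A list of 44 symbols was matched to the first column of the authors' deposited table, and 43 of its 9339 genes were members; CCND2, a D-type cyclin, was not analysed here. The list was drawn up by function, not by measured values, although with earlier results of these data known.

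The study used THP-1, a human acute monocytic leukaemia line that divides continuously in culture, with ALKBH5 knocked down (written A5-KD in the titles) or as control. Both conditions were the same line in the same medium. The labels do not say how the knockdown was made, what the control received, or whether replicates came from separate cultures, so the errors may be technical. From each condition 2 libraries of ribosome footprints (nuclease-protected fragments, labelled total RNA) and 2 of input RNA (labelled polyA RNA) were made, 8 in all. Groups were read from the titles, because the genotype field of the control input gives only "input".

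Dividing cells pass from G1 into S phase when cyclin D with CDK4 or CDK6, and then cyclin E with CDK2, phosphorylate the retinoblastoma protein and release E2F transcription factors. Cyclin B with CDK1 then drives entry into mitosis, and the anaphase-promoting complex with CDC20 ends it by marking cyclin B and securin for degradation. ALKBH5 removes the methyl group from N6-methyladenosine in RNA, a mark with known links to mRNA decay and translation.

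The readout was the authors' log2 fold change of translational efficiency, that is, the change between conditions in footprints relative to input RNA. The reference condition is not stated, so each sign below is the deposited sign, and a positive value cannot be assigned to the knockdown or the control. The mean signal is the average of normalized values over all libraries. It is not divided by gene length and is used here for how precisely a gene was measured. The 1 other use is a rough description of the cell type markers below. Levels per library were not analysed here, and the depth of each library is unknown. The targeted gene, ALKBH5, had a log2 fold change of 1.94 ± 2.30 (SE) at a mean signal of 4.85 in the authors' deposited table. It had no adjusted p there. It did not pass with statistics rescaled over all genes (adjusted p = 0.061) and did with those rescaled among genes of like signal (adjusted p = 0.0094), 2 settings described with the members below. The value concerns efficiency and does not check the knockdown. Markers of the line were measured for 12 of 14 monocytic and myeloid genes, with a summed mean signal of 4808.7 led by LYZ at 2942. CD14 and MPO were not among them. Only 1 of 7 T and B lymphocyte markers (CD79B), 0 of 4 erythroid markers and 1 of 6 epithelial and fibroblast markers (KRT8) had a value, with mean signals of 1.36 for CD79B and 4.33 for KRT8.

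With the p-values of the authors' deposited table no cell cycle gene passed. Of the 43 genes, 4 (CDC20, BUB3, PTTG1 and CDK4) carried an adjusted p from the authors' riborex fit, the others having too little signal. At a threshold of 0.05 it called 0 of the 4, against 1.54% of the 648 genes tested that way. At an unadjusted p under 0.05, 0 of 43 passed, against 0.707% of all 9339 genes, a background that gives less than 1 gene among 43. The 95% interval of every one of the 43 genes contained 0. Log2 fold changes were positive for 27 genes and negative for 16, with a median of 0.10 (quartiles -0.10 and 0.42). Over all genes 48.1% were positive, with a median of -0.02 (quartiles -0.27 and 0.22). Signs and medians were compared without a test. In whole cultures, a different share of cells in a phase and a different translation per cell cannot be told apart.

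**Figure D1:**
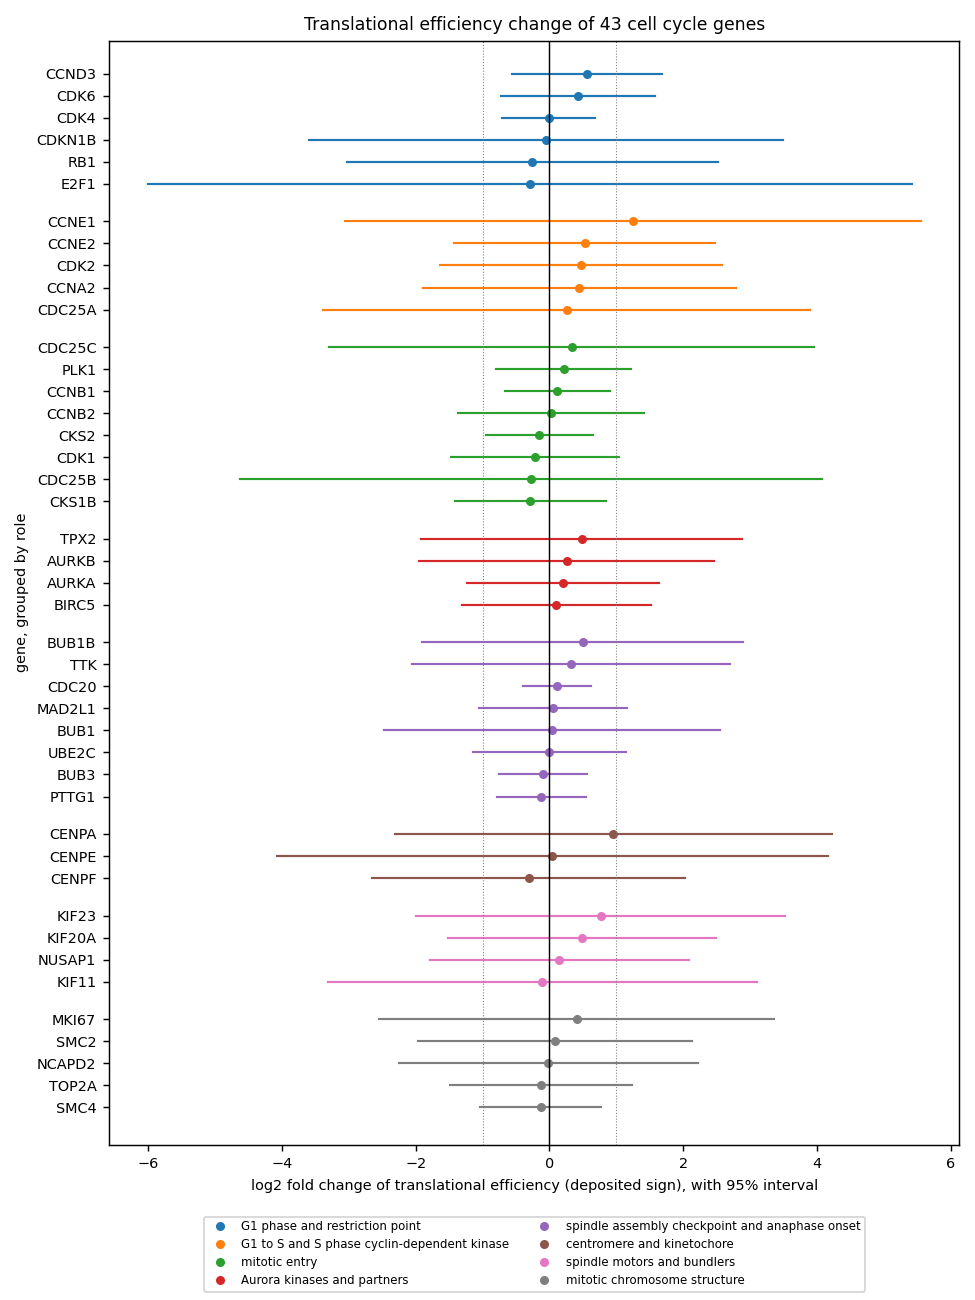
Log2 fold change of translational efficiency of 43 cell cycle genes, grouped by role. Points are the deposited fold changes, bars their 95% intervals from the deposited standard errors, and dotted lines mark -1 and 1. All bars cross 0, and the shortest is that of CDC20, from -0.40 to 0.62.

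The promoter sequences of these genes are shown first, because they divide the members by a feature that the list did not use. They concern transcription: the readout divides footprints by input RNA, so a change in RNA level alone would not appear in it. Genes of G2 and mitosis are known to be repressed outside those phases through the cell cycle genes homology region (CHR), bound by the DREAM and MuvB complexes, often beside CCAAT boxes bound by NF-Y. G1 and S phase genes are known to use E2F sites. RefSeq windows (GRCh38.p14, 250 bases before to 50 after an annotated start) were found for 35 of the 44 genes, 49 windows in all, since some genes have several starts. The 6 stretches below are the 120 bases before the start, 5′ to 3′ on the gene's strand. The first 4 genes have mitotic roles and the last 2 are the G1 kinases. Capitals mark the motifs searched on both strands: TTTGAA (the CHR), TTTAAA (a CHR variant) and CCAAT.

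CDC20, plus strand, chr1:43358861-43358980: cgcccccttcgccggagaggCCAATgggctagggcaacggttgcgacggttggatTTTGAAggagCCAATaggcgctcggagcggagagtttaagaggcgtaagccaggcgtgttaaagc
PTTG1, plus strand, chr5:160421735-160421854: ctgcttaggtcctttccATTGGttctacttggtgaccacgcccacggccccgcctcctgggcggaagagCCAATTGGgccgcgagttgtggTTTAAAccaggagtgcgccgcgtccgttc
CCNB1, plus strand, chr5:69167030-69167149: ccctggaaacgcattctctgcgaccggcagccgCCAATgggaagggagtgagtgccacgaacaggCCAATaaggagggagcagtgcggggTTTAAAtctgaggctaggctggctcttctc
CKS2, plus strand, chr9:89311075-89311194: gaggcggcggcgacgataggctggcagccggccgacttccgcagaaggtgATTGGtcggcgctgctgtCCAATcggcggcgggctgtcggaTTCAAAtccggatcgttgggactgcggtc
CDK4, minus strand, chr12:57752311-57752430: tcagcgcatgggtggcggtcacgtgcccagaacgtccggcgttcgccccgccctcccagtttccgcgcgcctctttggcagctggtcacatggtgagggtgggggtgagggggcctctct
CDK6, minus strand, chr7:92836574-92836693: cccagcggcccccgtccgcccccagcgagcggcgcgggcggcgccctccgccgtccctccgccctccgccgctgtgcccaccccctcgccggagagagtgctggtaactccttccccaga

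The stretches of CDC20, PTTG1, CCNB1 and CKS2 each held a CHR or its variant and 2 or 3 CCAAT matches, of which 2 in PTTG1 overlap. The CHR or variant began at position -30 in CCNB1, at -29 in CKS2 and PTTG1, and at -65 in CDC20. The stretches of CDK4 and CDK6 held none of the motifs. They do not stand for all G1 and S phase genes. CDKN1B had the variant at -30 and a CCAAT match at -50, a layout like that of CCNB1, and CCNE1 had the variant at -28. TTTGAA was found in windows of 19 of 26 genes with mitotic roles (73.1%) and of 0 of 9 with G1 and S phase roles (CCND3, CDK4, CDK6, CDKN1B, RB1, E2F1, CCNE1, CDC25A and CCNA2). Counted the same way by gene, 13.8% of the genes in the table with a window and 18.2% of all genes with one held it. By window it was in 56.8% of the 37 windows of mitotic genes, 15.2% of all 35116 windows and 10.6% of the 10810 windows of genes measured here. TTTAAA was in 12 of the 26 mitotic genes (46.2%) and in CCNE1 and CDKN1B of the others. By gene, it was in 10.2% of genes in the table and 14.5% of all genes with a window. CCAAT was in 22 of the 26 (84.6%) and in 5 of the 9 (55.6%). By gene, it was in 44.1% of genes in the table and 39.7% of all genes with a window.

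The E2F motif, spelled TTTCCCGC, TTTCGCGC, TTTGCCGC or TTTGGCGC, was in windows of 5 of 35 members (14.3%: CDC25A, E2F1, CDK1, CENPA and NUSAP1), against 7.36% of genes in the table. By window the shares were 12.2% for the members, 5.38% for genes in the table and 3.31% for all windows. Matches of TTTGAA in mitotic genes lay within 100 bases before the start in 16 of 26 cases (61.5%), against 28.8% of the matches in windows of all genes in the table. Genes with several windows have more chances of a match. A match is not a binding site, and a window without one may lie at a start the cells do not use. For CCND3 and RB1, and for SMC2 and AURKB among the mitotic genes, every window lay away from the start of the gene's span. The RB1 window (chromosome 13, 48476200 to 48476499) lay far inside a gene that begins at 48303751. The lack of TTTGAA in CCND3 and RB1 therefore does not cover the start of either gene. Messages of ribosomal proteins are known to begin with a C and a run of pyrimidines, through which mTOR controls their translation. A C followed by 4 pyrimidines at the annotated start was found for 4 of 35 cell cycle genes (11.4%: CCND3, CDKN1B, AURKB and NCAPD2), against 8.0% of genes in the table and 69.8% of 63 ribosomal protein genes. By window the shares were 8.16% for the members, 5.55% for genes in the table and 4.07% for all windows.

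**Figure D2:**
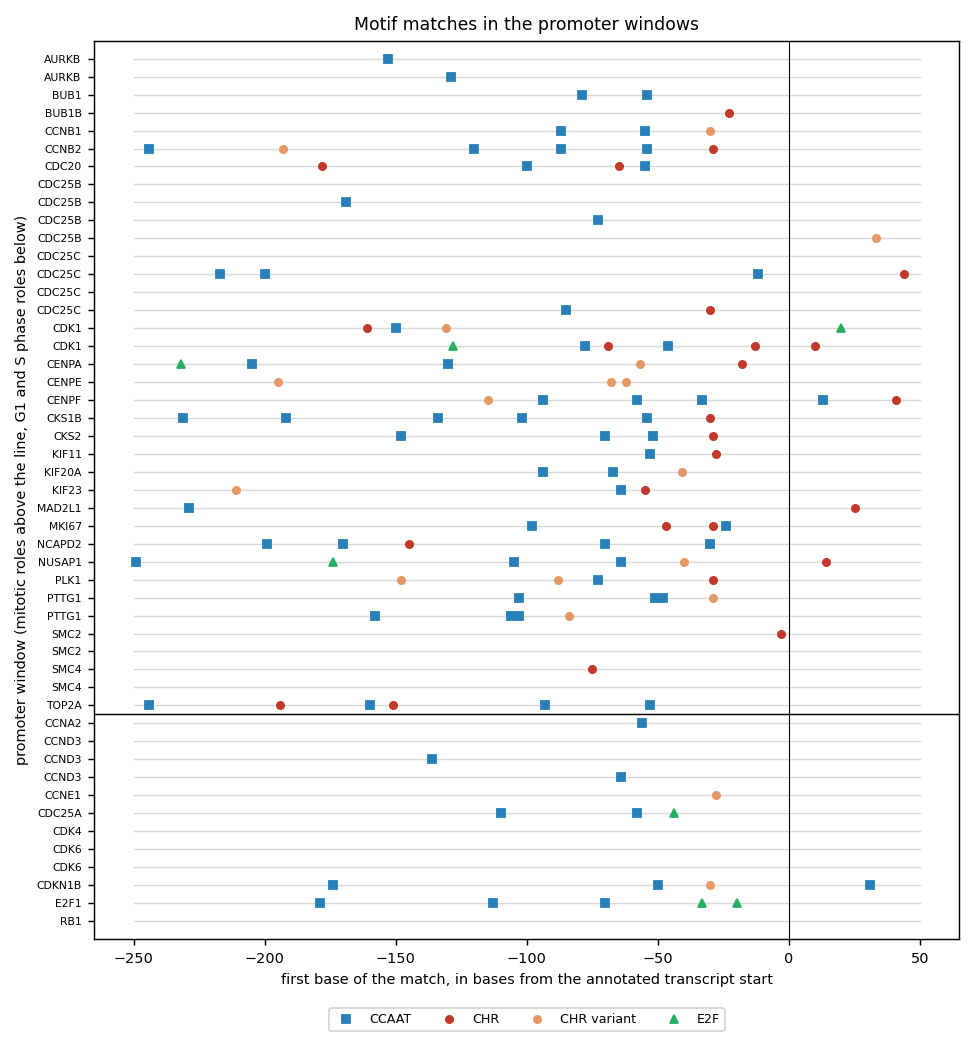
Positions of motif matches in 49 promoter windows, one line per window, in bases from the annotated transcript start. Red circles (TTTGAA) lie only above the line, in genes with mitotic roles, and 16 of their 26 matches fall within 100 bases before the start.

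Of the G1 regulators, CCND3 and CDK6 had the largest statistics of all 43 genes, both positive. CCND3, a D-type cyclin that activates CDK4 and CDK6 (chromosome 6, 41934933 to 42050035), had 0.56 ± 0.57 at a mean signal of 97.9 (unadjusted p = 0.32) in the authors' deposited table, a ratio of 1.48. Its 95% interval ran from -0.56 to 1.68, so it contained both 0 and 1. CDK6 (chromosome 7, 92604921 to 92836573) had 0.43 ± 0.59 at a mean signal of 59.2 (unadjusted p = 0.46) in the authors' deposited table, with an interval from -0.72 to 1.58. The partner kinase CDK4 (chromosome 12, 57747727 to 57752310) was measured more precisely, with -0.01 ± 0.35 at a mean signal of 172.3 (adjusted p = 1.00) in the authors' deposited table. Its interval, from -0.70 to 0.68, left out a change of 1 log2 unit in either direction. CDK4 and CDK6 differed by -0.44 (CDK4 minus CDK6), with an interval from -1.79 to 0.90 that takes the errors of the 2 genes as independent, so the pair was not shown to differ.

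The other G1 members had little signal. CDKN1B, the inhibitor p27 of cyclin-dependent kinases, had -0.05 ± 1.81 in the authors' deposited table. For RB1, the retinoblastoma protein, the authors' deposited table gave -0.26 ± 1.41, and for E2F1, the transcription factor it restrains, -0.29 ± 2.91. E2F1 had the lowest mean signal of the 43 genes, 2.24, and an interval from -6.01 to 5.42, which says next to nothing about its translation. Of the 6 measured G1 genes 2 were positive and 4 negative, with a median of -0.03.

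All 5 genes of the next step, the G1 to S transition and S phase, were positive, with a median of 0.47 and a range from 0.26 to 1.25. Their errors ran from 0.99 to 2.20, each larger than the fold change it belongs to, and none had an adjusted p. CCNE1, the cyclin E1 that activates CDK2 at the start of S phase (chromosome 19, 29811991 to 29824312), had 1.25 ± 2.20 at a mean signal of 6.04 in the authors' deposited table. It was the only 1 of the 43 whose fold change reached 1 in size, and its interval ran from -3.06 to 5.55. The relative CCNE2 had 0.53 ± 0.99 and their kinase CDK2 0.47 ± 1.08 in the authors' deposited table. CCNA2, the cyclin A2 that takes over CDK2 in S phase, had 0.45 ± 1.19, and CDC25A, a phosphatase that activates CDK2, 0.26 ± 1.86 in the authors' deposited table. Genes measured in the same libraries are not independent replicates, so the shared sign is a description.

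The genes of mitotic entry were divided, 4 positive and 4 negative, with a median of -0.06. CCNB1, cyclin B1 (chromosome 5, 69167150 to 69178245), had 0.11 ± 0.40 at a mean signal of 135.1 in the authors' deposited table, and its interval, from -0.67 to 0.90, left out a change of 1. Its kinase CDK1 (chromosome 10, 60778331 to 60794852) had -0.22 ± 0.64 in the authors' deposited table, and CCNB2, the second B-type cyclin, 0.03 ± 0.71. PLK1, the Polo kinase that promotes mitotic entry and spindle formation (chromosome 16, 23678889 to 23690367), had 0.21 ± 0.52 in the authors' deposited table, with an interval from -0.80 to 1.23. The small CDK-binding proteins were both negative, CKS1B with -0.29 ± 0.58 and CKS2 with -0.15 ± 0.41 in the authors' deposited table. CKS1B, which also helps the degradation of p27, had the largest negative statistic of the 43 genes (-0.50). CDC25B and CDC25C, phosphatases that activate CDK1, had -0.27 ± 2.22 and 0.33 ± 1.85 in the authors' deposited table, at mean signals of 3.78 and 5.58.

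The Aurora group was positive in all 4 members, with a median of 0.23. AURKA, the kinase of the spindle poles, had 0.20 ± 0.73 and its activator TPX2 0.48 ± 1.22 in the authors' deposited table. AURKB, the kinase of the chromosomal passenger complex, had 0.26 ± 1.12 and its partner BIRC5 (survivin) 0.10 ± 0.72 in the authors' deposited table. The 4 fold changes were each less than 0.5 times their error.

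The spindle assembly checkpoint holds back anaphase until every chromosome is attached, and it acts by inhibiting CDC20. CDC20 (chromosome 1, 43358981 to 43363203) had the highest mean signal of the 43 genes, 353.7, and the smallest error, with 0.11 ± 0.26 (adjusted p = 1.00) in the authors' deposited table. Its interval, from -0.40 to 0.62, was the narrowest of all, so a change in translational efficiency of CDC20 by more than a ratio of 1.53 in either direction lay outside it. The checkpoint protein BUB3 (chromosome 10, 123154402 to 123170467) had -0.10 ± 0.34 at a mean signal of 239.6 (adjusted p = 1.00) in the authors' deposited table. PTTG1, securin, the inhibitor of separase (chromosome 5, 160421855 to 160428744), had -0.12 ± 0.34 at a mean signal of 183.6 (adjusted p = 1.00) in the same table of the authors. Both intervals, from -0.76 to 0.56 and from -0.79 to 0.54, left out a change of 1.

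The remaining checkpoint genes were measured less well. In the authors' deposited table MAD2L1, which binds CDC20 in the checkpoint complex, had 0.06 ± 0.57, and UBE2C, the ubiquitin-conjugating enzyme of the anaphase-promoting complex, -0.0013 ± 0.58. BUB1B (BUBR1) had 0.50 ± 1.23, the kinase BUB1 0.04 ± 1.28 and the kinase TTK (MPS1) 0.32 ± 1.21 in the authors' deposited table. Over the 8 genes of this step 5 were positive and 3 negative, with a median of 0.05.

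At the centromere, CENPA, the histone H3 variant that marks it, had 0.95 ± 1.67 at a mean signal of 7.95 in the authors' deposited table, a ratio of 1.94 with an interval from -2.31 to 4.22 on the log2 scale. The kinetochore motor CENPE had 0.05 ± 2.10 and the kinetochore protein CENPF -0.31 ± 1.19 in the authors' deposited table. CENPF had the most negative fold change of the 43 genes, so the members spanned -0.31 to 1.25.

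Among spindle proteins, KIF23, a kinesin of the central spindle, had 0.76 ± 1.41 and KIF20A, a kinesin of cytokinesis, 0.49 ± 1.02 in the authors' deposited table. KIF11 (Eg5), which pushes the spindle poles apart, had -0.11 ± 1.64 and the microtubule bundler NUSAP1 0.15 ± 0.98 in the authors' deposited table. For chromosome structure the authors' deposited table gave -0.13 ± 0.46 for the condensin subunit SMC4, 0.08 ± 1.05 for SMC2 and -0.02 ± 1.14 for NCAPD2. TOP2A, the topoisomerase that untangles sister chromatids, had -0.12 ± 0.69 and MKI67, the Ki-67 protein of the chromosome surface, 0.41 ± 1.51 in the authors' deposited table. The medians of these 2 groups were 0.32 and -0.02.

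**Figure D3:**
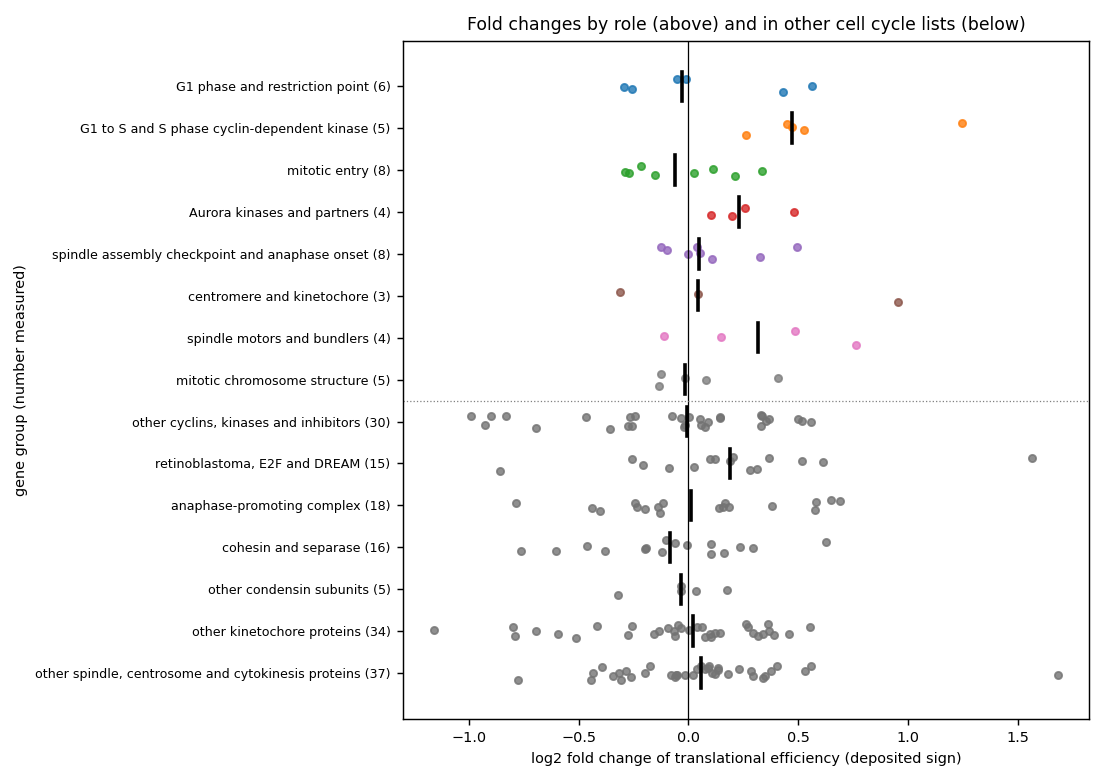
Log2 fold changes of translational efficiency by role for the 43 cell cycle genes (coloured, above the dotted line) and for 7 other lists of cell cycle genes (grey). Each point is a gene, spread vertically for legibility, and black bars are medians, which lie between -0.08 and 0.47.

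Related members were set side by side in 10 pairs. The intervals of all 10 differences contained 0, taking errors as independent, and no pair was tested. The closest pair was AURKA and AURKB, which differed by -0.06 (AURKA minus AURKB) with an interval from -2.69 to 2.58. CCNE1 and CCNE2 differed most, by 0.72, with an interval from -4.01 to 5.45. CCNB1 and CCNB2 differed by 0.09, between -1.51 and 1.68, and CKS1B and CKS2 by -0.14, between -1.52 and 1.25. None of these intervals is narrow enough to say that the proteins of a pair were translated alike.

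Precision followed mean signal closely. The deposited errors of the 43 genes ran from 0.26 to 2.91 with a median of 1.05, against 1.39 over all genes. For 38 of the 43 the error was within 10% of the median error of the 200 genes nearest in mean signal. NCAPD2 was the farthest above it, at 1.31 times, followed by CKS1B, CCNE1 and CCND3. The intervals of 6 genes lay wholly between -1 and 1 (CDC20, BUB3, PTTG1, CDK4, CCNB1 and CKS2), those of 32 contained both -1 and 1, and those of 5 contained one of them. A change of 1 log2 unit would reach an unadjusted p of 0.05 at the deposited error in 7 of the 43 genes, the same 6 and SMC4, and in 10.7% of all genes.

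**Figure D4:**
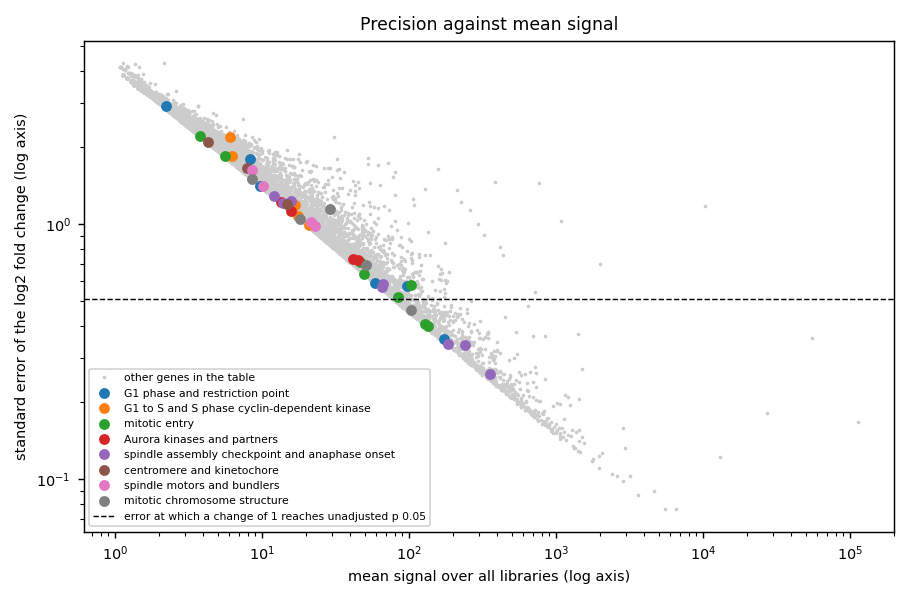
Standard error of the log2 fold change against mean signal, both on log axes, for all genes (grey) and the cell cycle genes by role (coloured). The dashed line is the error below which a change of 1 log2 unit would reach an unadjusted p of 0.05, and 7 cell cycle genes lie under it.

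The share of positive fold changes differed between bins of mean signal and did not rise or fall steadily. Of the 8 members with a mean signal of at least 100, 2 (CDC20 and CCNB1) were positive and 6 negative, with a median of -0.11, and over all 972 genes of that signal 33.3% were positive, with a median of -0.11. Of the 24 members between 10 and 100, 19 were positive, with a median of 0.21, against 52.0% of 4144 genes and a median of 0.02. Of the 11 members under 10, 6 were positive, against 47.7% of 4223 genes. The bins of members are small, 8 and 11 genes at the ends. Weighting each gene by the inverse of its squared error gave a mean of 0.06 for the members, -0.08 for all genes and -0.03 for the 8 members of at least 100.

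Each member was also placed among the 200 genes nearest to it in mean signal, as a description. CCND3 had a higher fold change than all 200 of its neighbours, CENPA than 199, KIF23 than 198, CCNE1 than 196, CDK6 than 194 and CCNE2 than 190. In all 11 members stood above at least 180 of their 200 neighbours, the others being CDK2, CCNA2, BUB1B, KIF20A and TPX2. At the low end 0 members stood above 20 or fewer, and the lowest, CENPF, stood above 34. Rank alone places about 20 of every 200 genes that high, and about as many that low. The shares over all genes were not computed and the counts were not tested, so they are not a result about the members. For CDK4, CCNB2, UBE2C and BUB3 the counts were 127, 108, 100 and 101, near the middle.

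**Figure D5:**
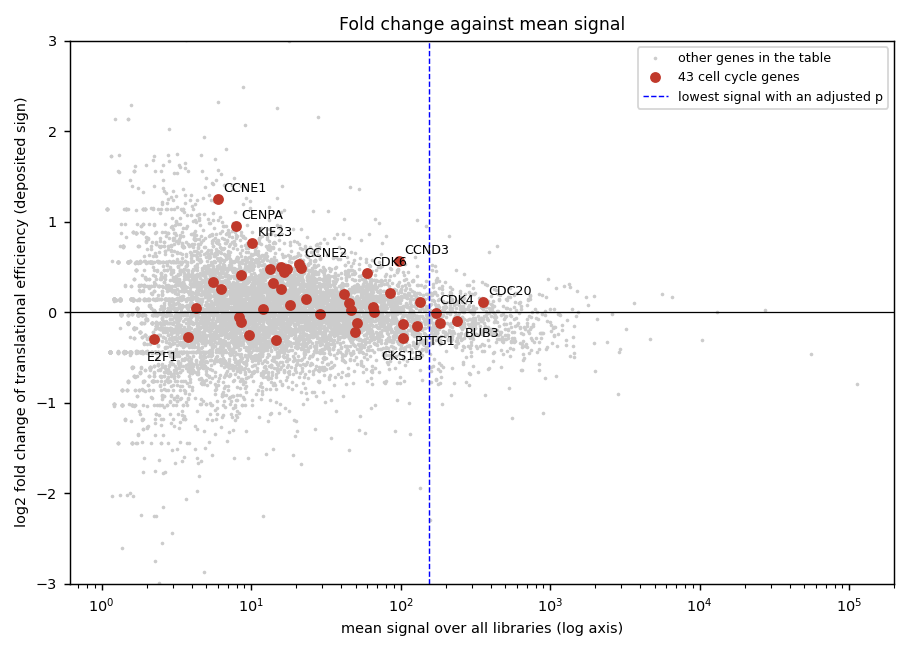
Log2 fold change of translational efficiency against mean signal (log axis) for all genes (grey) and 43 cell cycle genes (red). The dashed line is the lowest mean signal with an adjusted p, and 14 genes beyond 3 in size are outside the plot. CCND3 and CCNE1 lie at the upper edge of the genes of their signal.

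The deposited statistics were narrower than their errors imply, which bears on every value above. The robust spread of the Wald statistic (fold change over error) was 0.28 over all genes, where errors that match the spread of unchanged genes give 1. The size of the statistic passed 1 in 2.76% of all genes and in 0 members. When all statistics were divided by that spread, 1 member, CCND3, passed (adjusted p = 0.015, Benjamini-Hochberg over all genes), against a background of 3.82%. The spread was larger among genes of higher signal, up to 0.73 around a member. With each statistic divided by the spread of the 200 genes nearest in mean signal, 0 of 43 passed, against 2.74% of all genes, and CCND3 had an adjusted p of 0.57. The call of CCND3 thus depended on a rescaling over genes of unlike signal.

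Annotation limits the reading of some members. Of the 43, 15 have annotated pseudogenes that carry their name, with 7 for CKS1B, 5 for UBE2C and 2 each for CCND3, AURKA and PTTG1. CDC20, BUB3, CDK4 and SMC4 are also among the 15, with 1 each. The treatment of shared reads by the authors, not given in the sources used here, leaves these values uncertain. Spans of 7 members contain a small RNA gene: MIR6759 at CDK4, MIR4258 at CKS1B, MIR3153 at CKS2, SNORD132 at BUB1, MIR15B and MIR16-2 at SMC4, SCARNA10 at NCAPD2 and a predicted snoRNA at CCNB1. Their part in the values was not tested. Each of the 6 genes with an interval wholly between -1 and 1 has a named pseudogene, a small RNA gene or both. Without the members of either kind 26 were left, with a median of 0.24. This left out all 8 members with a mean signal of at least 100, whose median was -0.11. All members under 100 had a median of 0.20, so annotation and signal cannot be told apart here.

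Other genes of the cell cycle were taken from 7 lists of 163 genes, of which 155 were measured. At an unadjusted p under 0.05, 0 of the 155 passed in either direction, and of 5 with an adjusted p 0 were called. Dividing the statistics by their spread over all genes, as for the members, passed 7 of the 155 (STMN1, CCNL1, CENPW, CETN3, CCNI, SPC24 and RBBP4), against 3.82% of all genes. With the spread among genes of like signal 1 passed, E2F8, against 2.74%. In all 82 were positive and 73 negative, with a median of 0.03. The genes of each list with the highest mean signal are named.

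Other cyclins, kinases and inhibitors were evenly divided, 15 and 15 of 30 measured, with a median of -0.01. CCNL1, a cyclin linked to splicing, had -0.46 ± 0.36 (adjusted p = 0.96) at a mean signal of 55432 in the authors' deposited table. That signal ranked 2 among all genes, yet its error exceeded the 0.26 of CDC20 at a mean signal of 353.7. Why the signal was so high was not tested. The chaperone partner CDC37 had 0.09 ± 0.40 in the same table of the authors. Of 15 measured retinoblastoma, E2F and DREAM genes 11 were positive, with a median of 0.19. RBBP4, a histone-binding protein of that complex, had 0.28 ± 0.32 (adjusted p = 1.00) and E2F4, a repressive E2F factor, 0.19 ± 1.09 in the authors' deposited table. The anaphase-promoting complex was divided 9 to 9, with a median of 0.01, and its subunits ANAPC11 and ANAPC13 stood at -0.20 ± 0.25 and -0.14 ± 0.58 in the authors' deposited table.

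Cohesin and separase genes were positive in 6 of 16 and had a median of -0.08, and the cohesin subunits SMC1A and RAD21 stood at 0.23 ± 0.70 and -0.10 ± 0.57 in the authors' deposited table. The other condensin subunits were positive in 2 of 5, with NCAPD3 at -0.32 ± 0.93 and NCAPH2 at -0.03 ± 0.99 in the authors' deposited table. Of 34 other kinetochore proteins 18 were positive, with a median of 0.02, and CENPX had -0.07 ± 0.42 and ZWINT 0.14 ± 0.43 in the authors' deposited table. Of 37 other spindle, centrosome and cytokinesis proteins 21 were positive, with a median of 0.06. STMN1, which destabilises microtubules, had -0.28 ± 0.16 (unadjusted p = 0.084, adjusted p = 0.69) at a mean signal of 873 in the authors' deposited table, the smallest p of the 155 genes. The kinesin KIF22 had 0.06 ± 0.60 in the authors' deposited table.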

How the data were processed

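The measurement is 1 deposited table of a comparison over 8 libraries, and 0 columns hold values of a single library. The authors ran riborex with the DESeq2 engine, as the table's name shows; versions, input values and reference condition: not given in the sources used here. Build hg38 and the tools HISAT2 2.1.0, kallisto and CASAVA come, without roles, from the submitters' processing notes. Per the file headers, the authors' mean signal (baseMean), log2 fold change with its standard error, Wald statistic (a score), p-value and adjusted p-value are deposited. Recomputation showed that the statistic is the fold change over its error and that the p-value is a two-sided normal tail. The adjusted p-value follows Benjamini and Hochberg over 648 genes, those from a mean signal of 155.3 upwards. Depth per library is unknown.

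From these, 95% intervals (fold change ± 1.96 errors), adjustment over all 9339 genes, centring, and rescaled statistics were computed (Python 3.11.15, numpy 2.4.6, pandas 2.3.3, scipy 1.17.1). The adjustment and the rescalings were checked on simulated statistics, and the intervals and centring were not. The simulated spread did not vary with mean signal, unlike that of the data. Members and lists were chosen with earlier results of these data known. All members are named, and of other lists the 2 genes of highest mean signal. All 44 symbols matched GRCh38.p14 in RefSeq. Protein comparison of related members was planned and not done, since no protein sequences were used here.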

Additional observations from a re-analysis of the deposited data

How the results depend on the processing

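The count of members past an adjusted p of 0.05 was 0 as deposited, with adjustment over all genes and after centring on the median of all genes (-0.02). It was 1 (CCND3) with statistics divided by their overall spread and 0 with the spread among genes of like signal (chosen after seeing the data). At an unadjusted p under 0.05 the count was 0 as deposited and after centring. It was 4 (CCND3, CDK6, CCNE1 and CENPA) and 3 (CCNE1, CENPA and KIF23) with the 2 rescalings. The share of all genes passing an unadjusted p with these rescalings was not computed, so the 4 and 3 are not a result about the members. Positive members numbered 27 of 43, 30 after centring, 21 of 32 at a mean signal of at least 10 and 2 of 8 at 100 or more. There the median changed sign from 0.10 to -0.11 and the weighted mean from 0.06 to -0.03. The median was 0.12 after centring and 0.11 at a mean signal of at least 10, and 0.24 without members that overlap small RNA genes or have named pseudogenes (chosen after seeing the data). The weighted mean stayed between 0.05 and 0.07 after centring, at 10 or more, and without CDC20, which carried 14.8% of the weight. The cause of these differences was not tested. No paired analysis was possible because the table has no values per library, and for the same reason no replicate could be left out. Low signal limits most members: 39 of 43 had no adjusted p.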
